A study of Homo sapiens with 12 samples.

Results

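Monomethylation of histone H3 at lysine 9 (H3K9me1) was examined in HCT116 cells in 9 chromosome bands that stain darkly with Giemsa and hold few genes. The bands are 1p31, 1q31, 2q22 (in 2 segments), 6q16, 7p21, 7q21, 10q21, 12q21 and 16q21, taken as windows in whole Mb of hg19 that span 104 Mb. In 1-based positions they are chr1:70000001-84000000 (1p31), chr1:187000001-197000000 (1q31), chr2:137000001-140000000 and chr2:143000001-149000000 (2q22), chr6:93000001-105000000 (6q16), chr7:8000001-20000000 (7p21), chr7:80000001-91000000 (7q21), chr10:53000001-67000000 (10q21), chr12:77000001-92000000 (12q21) and chr16:59000001-66000000 (16q21). Staining and gene content were not measured in these data. A called H3K9me1 region was counted in a band when its midpoint lay in the window. By this rule the bands held 77096 of the 2264195 H3K9me1 regions in the 4 lists, 17112 and 20663 in the controls (A, B) and 11222 and 28099 after restriction (A, B).

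HCT116 is an established human colorectal carcinoma line. All cells were at passage 19 and were grown in RPMI-1640 with 10% fetal bovine serum. The control libraries (0 hr, A and B) came from cells in complete medium, and the restricted libraries (24 hr, A and B) from cells kept for 24 hr in the same serum with RPMI-1640 that lacked methionine. No library came from cells in complete medium at 24 hr, so the restriction and the time in culture cannot be told apart. The labels do not say that A and B were separate cultures, so tests over libraries measure only the spread between these samples, which may be technical.

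Methionine is the precursor of S-adenosylmethionine, the methyl donor that histone methyltransferases use, and the series asks what its depletion does to methylation of H3 lysine 9. H3K9me1 is the first step on the way to H3K9me2 and H3K9me3, and it is found both at active genes and in silent chromatin. Dark bands are usually rich in A and T, replicate late and often lie at the nuclear lamina. Several of the bands are known for large neuronal adhesion and guidance genes, such as the cadherin genes of 16q21 and PCDH15, a protocadherin gene of 10q21, while a few broadly expressed genes lie scattered among them. No annotation of hg19 was used here, so no region is assigned to a gene, exon or intron, and no sequence of the bands is printed.

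Regions were called separately in each library with a weak cutoff, a p of 0.1, and the amount called differed widely. The 8 chromosomes that carry the bands or serve as reference (1, 2, 6, 7, 10, 12, 16 and 17, 1263 Mb) were covered to 12.4% and 15.1% in controls A and B, against 5.72% and 14.8% in restricted A and B. ChIP reads numbered from 30952210 to 39452512 per library, and restricted A, with the fewest regions, had the most reads. Levels are therefore given as relative density, the covered share of a window divided by the covered share of the 8 reference chromosomes in the same library, so that 1 is the level of the reference chromosomes.

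The 9 bands held less H3K9me1 than the chromosomes around them in every library. They make up 8.23% of the reference length but held less of the covered length, 4.001% and 4.14% of it in the controls (A, B) and 5.26% and 6.25% after restriction (A, B). Their relative density was 0.486 in control A and 0.503 in control B, against 0.640 in restricted A and 0.759 in restricted B. Both restricted libraries thus lay above both controls, and the bands' deficit was smaller in them. The mean was 0.494 ± 0.0117 (SD, n = 2) in controls and 0.699 ± 0.0844 (SD, n = 2) after restriction, a ratio of 1.41. The ratio was 1.32 from A to A and 1.51 from B to B, where the letter coincides with the sequencing lane. In an exact two-sided permutation test p was 0.333, the smallest value that 2 libraries against 2 allow, so by this test no difference can pass 0.05.

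By number of regions the bands' share was also higher after restriction. Bands held 5.17% of the reference regions in control A (95% Wilson interval 5.10% to 5.25%) and 5.38% in B (5.31% to 5.46%). They held 6.01% in restricted A (5.91% to 6.12%) and 7.13% in B (7.05% to 7.21%), intervals that cover counting error only. Without scaling, the bands were covered to 6.04% and 7.61% in controls A and B, against 3.66% and 11.2% in restricted A and B. On that scale the restricted libraries were the lowest and the highest of the 4, with the controls between them (exact permutation p = 1). The higher level after restriction is thus a statement on the bands' share of what each library called, not on an amount of H3K9me1.

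Most member regions were weak, and among the stronger ones by the caller's p the groups were not apart. The share of members whose −log10 p from the caller reached 2 was 2.44% and 0.600% in the controls (A, B) and 0.490% and 0.480% after restriction (A, B). Counted over those regions alone, the relative density of the bands was 0.255 and 0.367 in controls A and B, against 0.425 and 0.352 in restricted A and B. Restricted B then lay below control B, and the groups overlapped (exact permutation p = 0.667). Over regions with a fold enrichment over the input of at least 2 they did not overlap. The values there were 0.393 and 0.368 in controls A and B, against 0.589 and 0.539 in restricted A and B. With the same number of regions in each library, the 186609 highest by −log10 p, the values were 0.328, 0.413, 0.640 and 0.620 in the same order, and both restricted libraries lay above both controls.

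**Figure D1:**
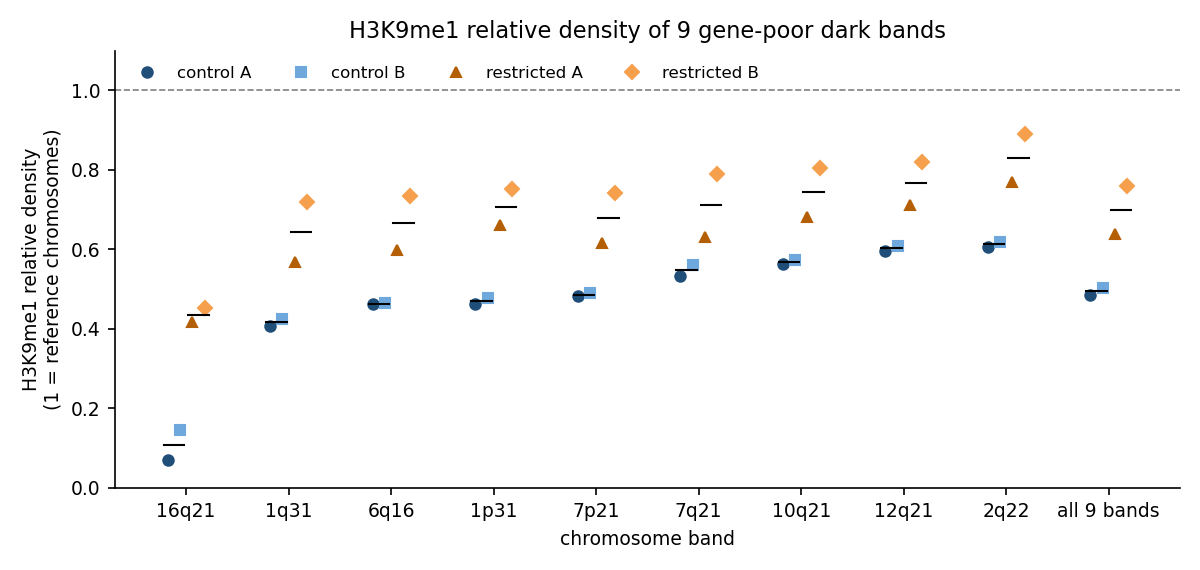
Relative density of H3K9me1 (y axis, 1 is the level of the 8 reference chromosomes) in each band and in all 9 together (x axis, ordered by the control mean). Each point is 1 library and each black line the mean of the 2 libraries of a group. The restricted points lie above the control points in all 9 bands, and 16q21 sits lowest in all 4 libraries.

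Band 16q21, the site of cadherin genes, had the least H3K9me1 of the 9 in all 4 libraries and the widest gap between the groups. Its relative density was 0.0702 and 0.145 in the controls (A, B) and 0.418 and 0.452 after restriction (A, B). Both restricted libraries lay far above both controls, with a ratio of means of 4.05, of 5.95 from A to A and of 3.13 from B to B. Its regions numbered 219 and 496 in controls A and B, against 507 and 1287 in restricted A and B. In restricted A, which called the fewest regions of the 4 libraries, 16q21 thus held more regions than in either control.

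The other 8 bands differed by less and stood close together. In 1q31 the relative density was 0.407 and 0.426 in the controls (A, B) and 0.568 and 0.719 after restriction (A, B), a ratio of means of 1.55. In 1p31 it was 0.463, 0.478, 0.661 and 0.752 in the same order of libraries, a ratio of 1.503. In 6q16 it was 0.463, 0.465, 0.598 and 0.735, a ratio of 1.44. The groups did not overlap in any of these bands, and the controls differed from each other by less than the restricted libraries did.

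In 7p21 the relative density was 0.482 and 0.489 in controls A and B, against 0.616 and 0.741 in restricted A and B, a ratio of 1.40. The 9 Mb of 2q22 stood highest in every library, at 0.607, 0.619, 0.769 and 0.891, a ratio of 1.35. The remaining bands were 10q21 at 0.564, 0.572, 0.682 and 0.806 (ratio 1.31), 7q21 at 0.533, 0.562, 0.631 and 0.791 (ratio 1.30) and 12q21 at 0.597, 0.608, 0.712 and 0.821 (ratio 1.27). All 9 bands had both restricted libraries above both controls. In 1 Mb bins, a smaller unit, 93 of the 104 bins of the bands did so. Of all 1 Mb bins of the reference chromosomes 41.2% did so and 23.6% did the reverse. Each band gave an exact permutation p of 0.333, which Benjamini-Hochberg adjustment over the 9 bands leaves at 0.333. Among regions with a −log10 p of at least 2 the direction turned in 1p31 and 7q21, to log2 ratios of -0.010 and -0.53. Few regions reach that limit, a mean of 271 per control library and 95 per restricted library over all 9 bands. Control A raises the control mean, since 2.44% of its members reach the limit, against 0.600% in control B.

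The order of the bands barely changed with the medium. Both controls ranked them, from the lowest, 16q21, 1q31, 6q16, 1p31, 7p21, 7q21, 10q21, 12q21 and 2q22. The lowest 3 and the highest 3 were the same in all 4 libraries, and only 1p31, 7p21 and 7q21 changed places after restriction. In control A the neighbours 6q16 and 1p31, with 0.463 each, differed by less than the controls did within either band, while 7p21 and 7q21, with 0.482 and 0.533, differed by more than the controls did within either.

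The bands were set against their own surroundings. In the 3 Mb on each side of every segment the relative density was 0.951 and 0.973 in the controls (A, B) and 1.01 and 1.05 after restriction (A, B), so the flanks were near the level of the reference chromosomes in all libraries. Divided by their flanks, the bands stood at 0.511 and 0.516 in controls A and B, against 0.636 and 0.725 in restricted A and B. Both restricted libraries were closer to their flanks than both controls, by a ratio of 1.32 (exact permutation p = 0.333). Band by band this separation held in 7 of 9 and was lost in 7q21 (0.619, 0.707, 0.678 and 0.778 of its flanks) and in 12q21 (0.756, 0.752, 0.747 and 0.867). It was also lost for the 9 bands together among regions with a −log10 p of at least 2.

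Density stepped down at the borders of the windows. The 20 bins of 1 Mb just inside the borders averaged 0.531 in control A and 0.550 in control B, against 0.793 and 0.822 in the 20 bins just outside. After restriction the inner bins averaged 0.730 and 0.817 in A and B and the outer bins 0.860 and 0.945. The step across the border was thus smaller in both restricted libraries. The 3 Mb between the segments of 2q22, which the rule leaves out, were lower than the segments, at 0.384, 0.390, 0.476 and 0.619.

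Windows taken as gene-dense, pooled, differed in the opposite direction. In 8 windows set by hand in 1p36, 2q37, 6p21, 7q22, 10q24, 12q13, 16p13 and 17q25, the relative density was 1.54 and 1.40 in the controls (A, B) and 1.12 and 1.05 after restriction (A, B), with both restricted libraries below both controls. Window by window this held in 7 of 8, and in 7q22 the groups overlapped, at 1.33, 1.38, 1.37 and 1.01. The windows were set with earlier results of these data known and their gene content was not checked, so these values are a description. Since relative density is a share of each library's total, a higher share in some windows goes with a lower one in others. The dark bands stood at 0.315 and 0.360 of the gene-dense level in controls A and B, and at 0.569 and 0.723 in restricted A and B (ratio 1.91, exact permutation p = 0.333). The contrast between the 2 kinds of band was therefore smaller in both restricted libraries. Here the groups also stayed apart among regions with a −log10 p of at least 2, where the mean was 0.170 in controls and 0.243 after restriction.

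**Figure D2:**
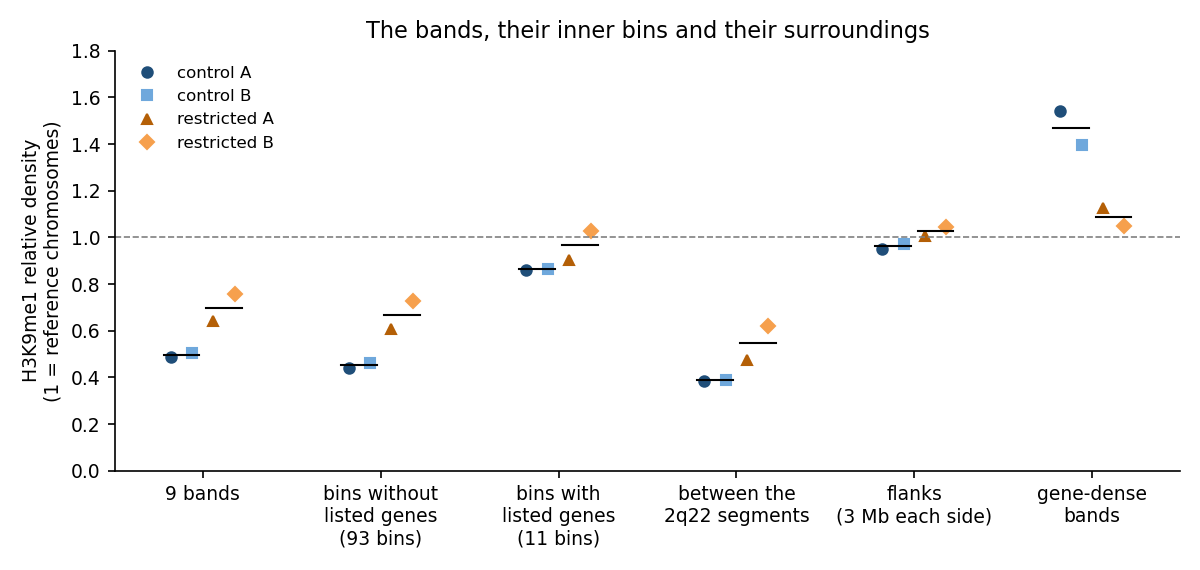
Relative density of H3K9me1 (y axis, 1 is the level of the 8 reference chromosomes) in the 9 bands, in their bins without and with listed broadly expressed genes, between the segments of 2q22, in the 3 Mb flanks and in 8 gene-dense bands (x axis). Points are libraries and black lines means of 2 libraries. The dark bands are higher and the gene-dense bands lower in the restricted libraries.

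Within the bands, H3K9me1 was on average denser in the bins listed for broadly expressed genes. Such genes placed 11 bins of 1 Mb, listed by hand from general knowledge, and all 17 of their symbols were found on the same chromosome in RefSeq (GRCh38), but their bins were not checked against an annotation of hg19. The 11 bins averaged 0.859 and 0.866 in controls A and B, against 0.904 and 1.03 in restricted A and B. The other 93 bins of the bands averaged 0.442, 0.460, 0.608 and 0.727. The listed bins were thus 1.94 and 1.88 times as dense as the others in controls A and B, and 1.49 and 1.41 times in restricted A and B. This ratio was lower in both restricted libraries (exact permutation p = 0.333). The bins were listed with earlier results of these data known, so the contrast is a description. The other bins were not checked for such genes. The densest of them exceeded the densest listed bin in every library, at 1.098, 1.207, 1.314 and 1.307 against 1.088, 1.138, 1.310 and 1.232.

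The listed bins varied among themselves. The bin of USP33 and FUBP1 in 1p31 (chr1:78000001-79000000) had 1.08 and 1.14 in the controls (A, B) and 1.31 and 1.12 after restriction (A, B), against 0.373, 0.390, 0.581 and 0.687 in the other bins of 1p31 without listed genes. USP33 encodes a deubiquitinase and FUBP1 a DNA-binding protein that acts on MYC. The bin of CDC73 in 1q31 (chr1:193000001-194000000), a gene for a subunit of the PAF1 complex, had 0.743, 0.798, 1.02 and 1.08 and was the densest bin of its band. The groups overlapped in the first of these bins and not in the second.

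The bin of COQ3 and USP45 in 6q16 (chr6:99000001-100000000) had 1.09 and 1.03 in controls A and B, against 1.02 and 1.22 in restricted A and B. That of CDK1, the mitotic kinase, in 10q21 (chr10:62000001-63000000) had 1.04, 0.884, 1.0025 and 1.23. That of TFAM, the mitochondrial transcription factor, and UBE2D1 in 10q21 (chr10:60000001-61000000) had 0.776, 0.786, 0.618 and 0.878. In these 3 bins the groups overlapped.

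Overlap was also seen for PPP1R12A in 12q21 (chr12:80000001-81000000), at 0.785, 0.839, 0.827 and 0.844, and for CEP290 and TMTC3 in 12q21 (chr12:88000001-89000000), at 0.792, 0.820, 0.777 and 0.824. The remaining bins had both restricted libraries above both controls, by ratios of means of 1.19 for ACADM in 1p31 (chr1:76000001-77000000), 1.26 for ORC4 in 2q22 (chr2:148000001-149000000), 1.15 for BZW2 and ANKMY2 in 7p21 (chr7:16000001-17000000) and 1.09 for DBF4 and SRI in 7q21 (chr7:87000001-88000000). In all, 5 of the 11 listed bins kept the groups apart, against 93 of the 104 bins of the bands.

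**Figure D3:**
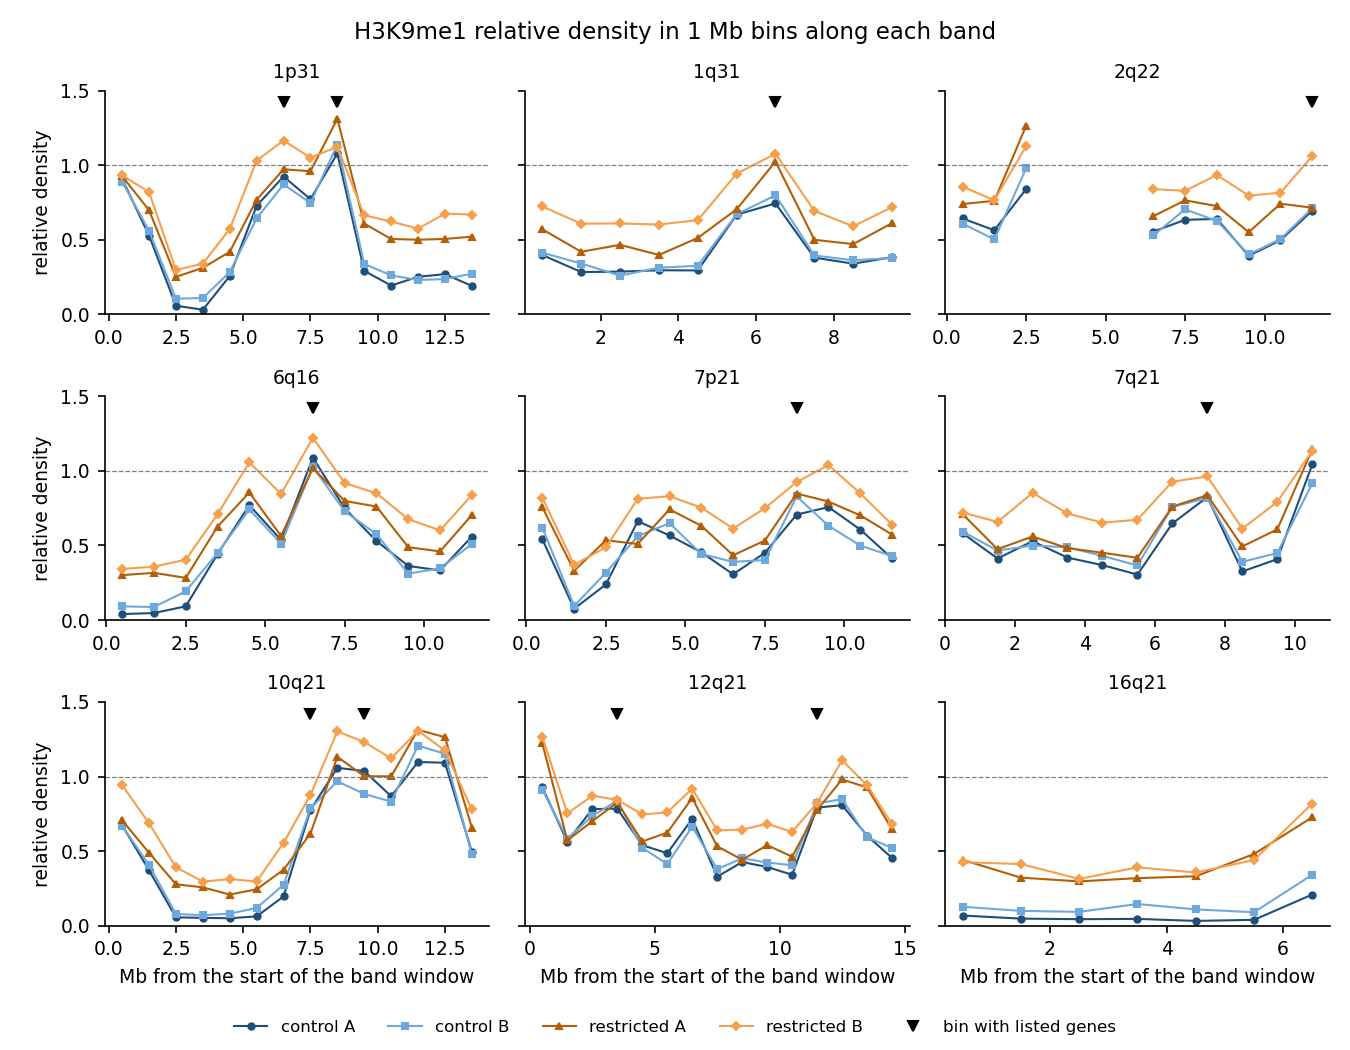
Relative density of H3K9me1 (y axis) in 1 Mb bins along each band (x axis, Mb from the start of the window), with 1 line per library and black triangles over the bins with listed genes. The control lines dip below 0.25 in stretches of 1p31, 6q16, 7p21, 10q21 and 16q21, where the restricted lines lie well above them.

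Along the bands H3K9me1 was uneven in controls and more even after restriction. The SD of log2(relative density + 0.1) across the 104 bins was 0.89 and 0.75 in the controls (A, B) and 0.50 and 0.45 after restriction (A, B). The 90th percentile of the bins was 15.0 times the 10th in control A, 7.88 times in control B, 3.11 times in restricted A and 2.85 times in restricted B. Both restricted libraries were thus more even than both controls. This was not limited to the bands, since over the 1123 other bins the SD was 0.94, 0.81, 0.56 and 0.46 in the same order. Among regions with a −log10 p of at least 2 the direction turned, with a mean SD of 1.23 in controls and 1.47 after restriction. That SD rests on few regions, a mean of 271 members per control library and 95 per restricted library over the 104 bins.

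The position of dense and sparse bins was largely shared. Pearson's r of log2(relative density + 0.1) over the 104 bins was 0.98 between the controls, 0.94 between the restricted libraries and 0.90 to 0.96 across the groups, as a description over bins that share each library. In 5 bands the controls held bins of very low density. A density under 0.25 in both controls, a limit chosen after the values were seen, was found in 16 bins. These were 6 of the 7 bins of 16q21, 4 consecutive bins of 10q21 (chr10:55000001-59000000), 3 of 6q16 (chr6:93000001-96000000), 2 of 1p31 (chr1:72000001-74000000) and 1 of 7p21 (chr7:9000001-10000000).

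In these 16 bins the density ranged from 0.0312 to 0.0924 in control A, with a median of 0.0495, and from 0.0713 to 0.193 in control B, with a median of 0.0975. It ranged from 0.210 to 0.481 in restricted A, with a median of 0.307, and from 0.296 to 0.441 in restricted B, with a median of 0.358. No restricted value fell into the control range. The other 88 bins of the bands had medians of 0.538, 0.517, 0.658 and 0.817 in the same order. These low bins were picked by their control values, so their difference is a description. It was not limited to the bands. Counted in each library, bins under 0.25 numbered 21 and 18 of 104 in controls A and B, against 2 and 0 in restricted A and B. Outside the bands they numbered 99 and 81 of 1123 in controls A and B, against 9 and 8 in restricted A and B.

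For each band the sparsest and the densest bin were taken by the mean density over all 4 libraries, a choice that decides which bin is named. By this mean the sparsest bin of 16q21 (chr16:61000001-62000000) had 0.0446 and 0.0937 in the controls (A, B) and 0.298 and 0.314 after restriction (A, B). In 10q21 (chr10:57000001-58000000) the values were 0.0506, 0.0818, 0.210 and 0.313 in the same order, and in 6q16 (chr6:93000001-94000000) 0.0404, 0.0922, 0.301 and 0.342. With 1p31 (chr1:72000001-73000000, at 0.0581, 0.105, 0.251 and 0.298) and 7p21 (chr7:9000001-10000000) these bins had ratios of means from 3.36 to 4.85. By the control mean alone the sparsest bin was another one in 1p31 (chr1:73000001-74000000, ratio 4.64), in 10q21 (chr10:56000001-57000000, ratio 4.43) and in 16q21 (chr16:64000001-65000000, ratio 7.03).

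The sparsest bins of the other 4 bands by the same mean were less empty in controls. In 1q31 (chr1:190000001-191000000) the bin had 0.296 and 0.313 in controls A and B, against 0.398 and 0.602 in restricted A and B. In 7q21 (chr7:85000001-86000000) the values were 0.305, 0.366, 0.418 and 0.673, in 12q21 (chr12:87000001-88000000) 0.342, 0.406, 0.463 and 0.629, and in 2q22 (chr2:146000001-147000000) 0.393, 0.401, 0.551 and 0.796. Their ratios of means ran from 1.46 to 1.70, and the groups did not overlap in any of these 9 bins. By the control mean alone the sparsest bin was another one in 1q31 (chr1:189000001-190000000, ratio 1.97) and in 12q21 (chr12:84000001-85000000, ratio 1.65).

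Among the densest bins the ratios of means ran from 1.06 in 6q16 to 2.80 in 16q21 (chr16:65000001-66000000). That of 10q21 (chr10:64000001-65000000) had 1.098 and 1.21 in the controls (A, B) and 1.31 and 1.31 after restriction (A, B), a ratio of means of 1.14. That of 12q21 (chr12:77000001-78000000) had 0.927, 0.912, 1.22 and 1.26, a ratio of 1.35. The densest bins of 2q22 (chr2:139000001-140000000) and 7q21 (chr7:90000001-91000000) had ratios of 1.31 and 1.16. In 1p31, 1q31, 6q16 and 7p21 the densest bin was one listed for broadly expressed genes.

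Tested one by one across the 1227 bins of the reference chromosomes, 21 of the 104 bins of the bands rose after restriction and 0 fell (limma, Benjamini-Hochberg adjusted p under 0.05). Over all bins tested, 10.0% rose and 3.18% fell. Of the 21 bins, 7 were the whole of 16q21, 6 lay in 1p31, 3 in 10q21, 2 in 6q16 and 1 each in 2q22, 7p21 and 12q21, and none in 1q31 or 7q21. The median log2 difference was 0.45 in the bands and 0.08 over all bins. An unadjusted p under 0.05 was reached by 60 of the 104 bins of the bands and by 402 of all 1227 bins, in either direction. In bins of 2 Mb limma called 5 of 46 bins of the bands higher, and 4.36% of all 619 bins. Without restricted A the median log2 difference was 0.58 in the bands and 0.088 over all bins. In that fit the spread comes from the controls alone and the lone restricted library is assumed to vary like them.

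The bin with the smallest adjusted p was chr16:64000001-65000000 in 16q21, at 0.0401 and 0.0910 in controls A and B, against 0.481 and 0.441 in restricted A and B. Its log2 difference was 1.78 (SE 0.295, limma adjusted p = 0.0206). Another 4 of the 10 bins with the smallest adjusted p lay in 16q21, with log2 differences of 1.24 (chr16:65000001-66000000), 1.44 (chr16:59000001-60000000), 1.44 (chr16:60000001-61000000) and 1.41 (chr16:63000001-64000000). The first of these, nearest to the end of the band, was its densest bin in all 4 libraries, at 0.210, 0.342, 0.728 and 0.819.

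The other 5 bins lay in 4 bands. In 6q16, chr6:94000001-95000000 had 0.0473 and 0.0877 in the controls (A, B) and 0.317 and 0.358 after restriction (A, B) (log2 difference 1.39), and chr6:93000001-94000000 differed by 1.36. In 7p21, chr7:9000001-10000000 had 0.0758, 0.0947, 0.331 and 0.370 (log2 difference 1.28). In 10q21, chr10:55000001-56000000 had 0.0567, 0.0796, 0.278 and 0.393 (log2 difference 1.36). In 1p31, chr1:83000001-84000000 had 0.191, 0.273, 0.521 and 0.669 (log2 difference 1.07). All but this last bin were among the 16 of very low control density. Limma adjusted p-values of the 10 bins ran from 0.0206 to 0.0266. Without restricted A 6 of the 10 bins stayed under 0.05, and without restricted B 4 did. Without control A 9 did, the exception being chr1:83000001-84000000 (limma adjusted p = 0.0590), and without control B all 10 did. Both fits without a restricted library kept chr16:64000001-65000000, chr16:65000001-66000000, chr16:59000001-60000000 and chr1:83000001-84000000, while chr6:93000001-94000000 had a limma adjusted p of 0.0759 without restricted A and 0.116 without restricted B.

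Across all 104 bins the direction was the same nearly everywhere. Both restricted libraries lay above both controls in 93 bins (89.4%) and below them in 0, while over all 1227 bins they lay above in 41.2% and below in 23.6%. The calls depended on how the libraries were scaled. When the bins of each library were brought to one distribution (quantile normalization), 0 bins of the bands were called by limma, 13 had an unadjusted p under 0.05, and the median log2 difference was 0.032 in the bands against 0.045 over all bins. With no scaling, with no filter on empty bins and with regions of −log10 p of at least 2, limma also called 0 bins, and 0, 59 and 1 bins of the bands had an unadjusted p under 0.05. The median difference of the bands turned to -0.012 with no scaling and to -0.0042 with the stronger regions.

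Ranked among all bins, those of the bands stood at a similar place in all libraries. Their median percentile among the 1227 bins, counted from the lowest density, was 17.2 and 16.9 in controls A and B, against 16.015 and 18.5 in restricted A and B, and the groups overlapped. For 16q21 the median percentile was 2.20 and 2.61 in the controls (A, B) and 3.26 and 3.83 after restriction (A, B), higher in both restricted libraries. The bands thus stayed among the least dense bins of their chromosomes in all 4 libraries.

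Bins of low density elsewhere differed by a similar ratio, over a range that leaves out the sparsest bins of the bands. In a comparison added after the data were seen, 324 bins outside the bands were taken whose density in control A lay between 0.0571 and 0.860, the 10th and 90th percentile of the bands. Their median density was 0.553 and 0.560 in controls A and B, against 0.740 and 0.803 in restricted A and B, a ratio of 1.39. The 82 bins of the bands in that range had medians of 0.454, 0.472, 0.608 and 0.753, a ratio of 1.47. The outside bins were denser in both controls, so the sets are not matched in level. Below the range lay bins of the bands with large differences, among them chr16:64000001-65000000, which had the largest of the bands (log2 difference 1.78). Outside the bands the largest log2 difference of any bin was 1.985, so differences of that size were not limited to the bands. From A to A the ratios were 1.34 in both sets, and from B to B 1.60 in the bands and 1.43 outside. The difference between the sets was not tested.

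**Figure D4:**
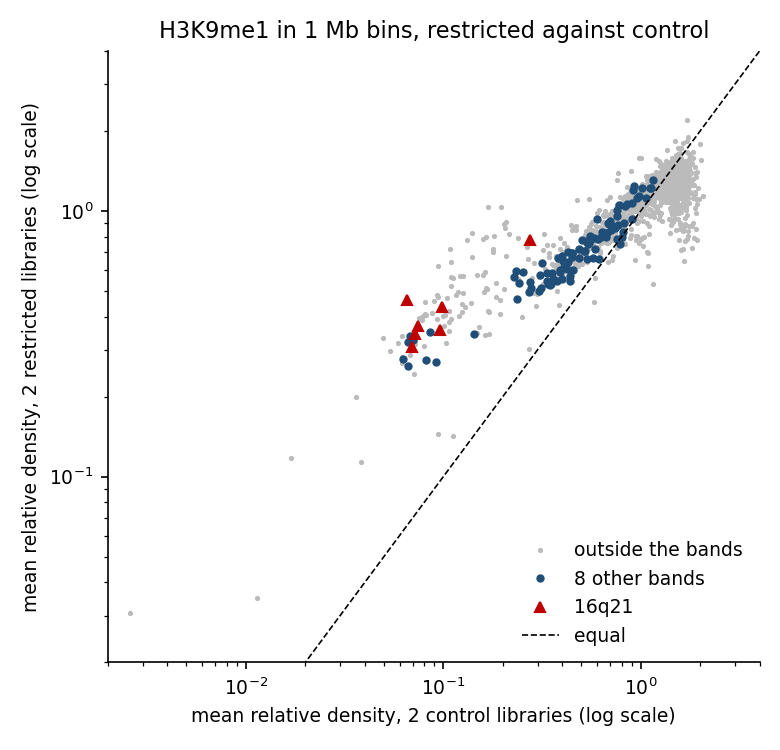
Mean relative density of H3K9me1 in each 1 Mb bin in the 2 control libraries (x axis, log scale) and the 2 restricted libraries (y axis, log scale), for bins of 16q21 (triangles), the 8 other bands (dark points) and outside the bands (grey points). The dashed line marks equal values. Bins of low control density lie above it inside and outside the bands.

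Member regions were narrower than other regions. Their median width was 302 bp in control A, 315 bp in control B, 289 bp in restricted A and 336 bp in restricted B, against 376, 391, 326 and 380 bp in the rest of the reference chromosomes. The ratio of the medians was 0.803, 0.806, 0.887 and 0.884, higher in both restricted libraries (exact permutation p = 0.333). At least 2 kb wide were 27 of 17112, 51 of 20663, 2 of 11222 and 74 of 28099 members in the same order. Among the other regions they were 2848 of 313814, 4599 of 363099, 337 of 175387 and 2770 of 366191.

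By pileup the members were lower than the other regions, at medians of 2.92, 2.49, 2.53 and 2.62 against 3.43, 2.73, 2.60 and 2.90, or 0.851, 0.912, 0.973 and 0.903 of the others. By fold enrichment they were close. Their median fold enrichment over the input, the caller's ratio of pileup to background, was 1.94 and 1.79 in the controls (A, B) and 1.86 and 1.799 after restriction (A, B), or 0.981, 0.983, 1.004 and 0.979 of the other regions' median. No member had a −log10 p of 4 or more as averaged over the region, against 8, 0, 12 and 2 other regions. The other regions numbered 313814, 363099, 175387 and 366191 in the same order, far more than the members. Regions this strong were so rare among them that 0 does not set the members apart. The highest members had a −log10 p of 3.22 in control A, in 7p21 at chr7:18231630-18231778, and of 3.84 in control B, in 10q21 at chr10:55231513-55231628. In restricted A the highest had 2.48, in 1q31 at chr1:193801994-193802102, and in restricted B 3.33, in 12q21 at chr12:77379290-77379431. The widest of these 4 spanned 149 bp.

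Few regions recurred at the same place. Merged where they overlapped by at least 1 bp, the members formed 53995 regions, of which 71.2% came from 1 library and 2.13% from all 4. Outside the bands these shares were 58.2% and 4.83%. The covered bases that 2 libraries shared, as a share of those covered by either, were 8.56% for the controls and 6.33% for the restricted libraries, and from 5.28% to 9.16% across the groups. Pairs of 1 group thus lay within the range of pairs across groups. Of the bases covered in control A, 17.8% were covered in control B, and of those in control B 14.1% in control A. For the restricted libraries these shares were 24.2% of A and 7.89% of B. Found in both controls only were 1726 merged regions (3.20%), and in both restricted libraries only 1683 (3.12%). Outside the bands the shares were 6.08% and 2.57%.

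The 5 widest regions found in all 4 lists lay in 4 bands. The widest spanned 4588 bp in 10q21 at chr10:61647546-61652133, and others spanned 4345 bp in 1p31 (chr1:75595339-75599683), 4324 bp in 1q31 (chr1:193034364-193038687, in the bin of CDC73), 4067 bp in 10q21 (chr10:63805087-63809153) and 4055 bp in 7p21 (chr7:12894247-12898301). In restricted A only 141 bp of the first and 187 bp of the second were covered. The widest in both controls only, 2602 bp, was in 6q16 (chr6:97384491-97387092), with a fold enrichment of 2.22 in control A and 1.70 in control B. The widest in both restricted libraries only, 2807 bp, was in 12q21 (chr12:80484351-80487157), with 1.76 in restricted A and 1.89 in restricted B.

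The other 4 regions found in both controls only spanned 2151 bp in 6q16 (chr6:97599271-97601421), 2131 bp in 10q21 (chr10:60711297-60713427), 2022 bp in 1q31 (chr1:193061546-193063567) and 1872 bp in 1p31 (chr1:78104363-78106234). Those found in both restricted libraries only spanned 2305 bp in 6q16 (chr6:100527954-100530258), 2244 bp in 1q31 (chr1:188306077-188308320), 2193 bp in 1p31 (chr1:80088336-80090528) and 2075 bp in 12q21 (chr12:82687781-82689855). Of the 5 found in both controls only, 3 lay in bins listed for broadly expressed genes, and of the 5 found in both restricted libraries only, 1 did, the widest. These few regions were picked by width. The share of all regions of each pattern in the listed bins was not counted, so the counts do not compare the groups.

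Long stretches with no called region were most common in control A. Stretches of at least 50 kb numbered 141 and 68 in controls A and B, against 98 and 2 in restricted A and B, and they took up 12.01%, 4.52%, 6.32% and 0.200% of the bands. The longest was 234 kb, in control A in 16q21 (chr16:63602223-63836074). Restricted A had more such stretches than control B, so the groups overlapped. Free of regions in all 4 lists were 152 kb of 6q16 (chr6:95679570-95831695), 51.6 kb of 1p31 (chr1:72751425-72803011) and 32.2 kb of 10q21 (chr10:57262047-57294259), the 3 longest. The hg19 sequence was not used, so it was not checked whether these are gaps of the assembly, where no read can align.

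H3K9me3, the trimethylated form that marks constitutive heterochromatin, was profiled in the same conditions and called with other settings, so its level is not set against H3K9me1. H3K9me3 peaks in the bands numbered 7 and 10 in the controls (A, B) and 17 and 9 after restriction (A, B), of 578, 352, 811 and 259 on the reference chromosomes. Their relative density was 0.101, 0.181, 0.143 and 0.206, and the groups overlapped (exact permutation p = 0.667). The 43 peaks formed 36 loci, of which 31 came from 1 library. Only a locus in 1q31 (chr1:187584933-187586136) was found in all 4 lists. Of the 43 peaks, 24 overlapped an H3K9me1 region of the same time and letter. Most peaks of each restricted list did so, and most peaks of each control list did not, a difference that was not tested. No like count was made for H3K9me3 peaks outside the bands, so 24 cannot be called many or few.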

How the data were processed

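The members, the hand-set windows and the listed-gene bins were chosen with earlier results of these data known. Reads were aligned and peaks called with Bowtie2 2.1.0, SAMtools 1.5 and MACS2 2.1.1.20160309 on hg19, per the submitters' processing notes; the order of steps is not given in the sources used here. Per the file headers, each H3K9me1 library was called on its own in broad mode against its matched input, where stretches past a p of 0.0001 count as strong and those past 0.1 as weak, and duplicate reads were reduced to 1 per position. H3K9me3 was called with q cutoffs of 0.05 and 0.1 and all duplicates kept, per the file headers. The deposited pileup is a signal of read coverage scaled to the smaller of ChIP and input. The authors' caller gave p and q as −log10, and fold enrichment as a ratio to the local background in the input. It averaged each over the region. Per the file names in the headers, A was sequenced on lane 2 and B on lane 3 for H3K9me1. ChIP reads numbered 30952210 and 31683422 in controls A and B, and 39452512 and 35134998 after restriction. Peak lists hold no counts, so shares of covered length carry no counting interval.

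Chromosome lengths were the highest region ends. The 8 reference chromosomes were present in all 4 lists. The bin test kept 1 Mb bins that hold a region in 2 or more libraries and used limma 3.58.1 (lmFit, eBayes with trend and robust) in R 4.3.3 on log2(relative density + 0.1), with Benjamini-Hochberg adjustment over 1227 bins; log2 differences understate changes of sparse bins. Each single value was put to an exact permutation test, two-sided, with 6 relabellings. The scripts were tested on simulated data. Named were all bands, up to 10 called bins of the bands per direction by the smallest adjusted p, all listed-gene bins, the densest and the sparsest bin of each band, the 5 widest regions of each pattern and the 3 longest region-free stretches. Alternatives were stricter regions, other bin sizes, scalings, pseudocounts and filters, a block for the letter, and leaving out each library or band.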

Additional observations from a re-analysis of the deposited data

How the results depend on the processing

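Values below are log2 ratios of the restricted to the control mean, unless counts are named. The ratio for the 9 bands together was 0.50, ran from 0.37 to 0.62 with 1 library left out and from 0.46 to 0.53 with 1 band left out, and was 0.32 for regions with a −log10 p of at least 2. Of 144 alternatives to the values with an exact test, 133 kept the direction. At a −log10 p of at least 2 it turned for 1p31 (-0.010), 7q21 (-0.53), the SD over bins (0.26, from -0.78), the number of members (-1.51) and their covered length (-1.58). From B to B this covered length did not fall, at 0.0292% of the bands in control B and 0.0312% in restricted B. Leaving out 1 library gave -0.0048 (without restricted A) to 0.031 for the median fold enrichment of members over others, -0.057 (without control A) to 0.78 for H3K9me3, -0.75 (without restricted B) to 0.57 for the number of members, with -0.072 without control A, and -0.90 (without restricted B) to 0.72 for their covered length, with -0.033 without control A. H3K9me3 peaks with a −log10 q of at least 5 gave no ratio, since the bands held 1, 0, 0 and 0.

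Limma called 162 bins in all, 21 of them in the bands and higher. These counts were 0 and 0 with no filter, no scaling, quantile normalization or the stronger regions, where the median difference of the bands was -0.012 (no scaling) and -0.0042 (stronger regions), and 36 and 5 with bins of 2 Mb. Without 1 library they ran from 116 to 641 and from 18 to 77, the highest without restricted A; without restricted B they were 402 and 18. With a lone library in a group, limma takes the spread from the other group. The cause was not tested. Of the 10 named bins, chr7:9000001-10000000 turned to -0.020 under quantile normalization, and chr6:94000001-95000000 and chr1:83000001-84000000 to -0.95 and -1.96 with the stronger regions.

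With the letter as a replicate block limma called 279 bins in all and 37 in the bands, and the ratio of the bands was 0.40 within A and 0.59 within B. Same-letter deviations correlated at -0.11 over the bins, and the crossed pairing, added after the data were seen, gave 273 and 25 calls.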
